A study of Mus musculus with 9 samples.

Results

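The DnaJ (Hsp40) family of co-chaperones was followed in fully grown mouse oocytes in which Mtor, the gene of a kinase that couples growth to nutrient supply, had been targeted by a Cre recombinase. Members were taken by gene symbol: Dnaja, Dnajb or Dnajc followed by a digit. Of 24228 gene rows with a usable symbol, 45 were members, namely 4 Dnaja, 13 Dnajb and 28 Dnajc genes. MG oocytes came from mice carrying Gdf9-Cre, which acts from the primordial follicle stage, and MZ oocytes from mice carrying Zp3-Cre, which acts in oocytes that have begun to grow. WT oocytes were the wild type, and the labels do not say whether these mice carried floxed Mtor without Cre. Each group had 3 libraries. All mice were C57BL/6 females primed with 5 IU of the gonadotropin PMSG 46 h before germinal vesicle stage oocytes were taken from large antral follicles. Their age is 6 months in the sample labels and 23 days in the design text, and this was not resolved. RNA was amplified by Smart-seq2, and the number of oocytes or animals behind a library is not stated, so a p-value here covers only how these libraries vary, and that variation could be technical. The family was selected on the FPKM of Dnajb4, whose low level in MG oocytes was known beforehand. The MG against WT and MG against MZ values of Dnajb4 are therefore a description and support nothing further. Dnajb4 is also among the members counted below as lower in MG.

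DnaJ proteins carry a J domain that stimulates the ATPase of Hsp70 chaperones, so that Hsp70 closes on an unfolded client protein, and a nucleotide exchange factor then releases ADP and the client. Class A and class B members bind clients themselves, in the cytosol and nucleus for most. Class C members share little beyond the J domain and place Hsp70 at particular sites, such as the ribosome, the mitochondrial import pore, the endoplasmic reticulum or clathrin-coated vesicles. In the fully grown oocyte transcription is largely silent, so the mRNA measured there is a store laid down during growth.

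Several cytosolic DnaJ genes are known targets of heat shock factor, which binds repeats of the unit GAA in alternating orientation. RefSeq promoter windows (GRCm38.p6, 250 bases before a transcript start) were in the table used for 37 of the 45 members, with 50 windows in all. GAANNTTC or TTCNNGAA, searched on both strands, was found for 6 members, which were Dnaja1, Dnaja4, Dnajb4, Dnajb6, Dnajc10 and Dnajc27, in 7 of the 50 windows. The same letters were in 12.8% of all 32851 windows. The longer GAANNTTCNNGAA, which contains both shorter forms, was found for Dnajb6 alone among the members and in 0.466% of all windows. The endoplasmic reticulum stress element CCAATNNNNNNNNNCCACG was found for Dnajc3 alone among the members and in 0.113% of all windows. The sequences of Dnajb4 and Dnajb6 are shown because these were the 2 members with the highest levels. Of the 2 Dnajb4 windows, the 1 at the outer start of the gene, chr3:152210084-152210333, held neither element and is not shown. The window shown, chr3:152193846-152194095 on the minus strand, lies inside the gene before an internal transcript start and holds no annotated exon base. The Dnajb6 stretch, chr5:29735843-29735872 on the plus strand, lies in annotated exons of Dnajb6 and Gm5129, so only the element and its flanks are given. Capitals mark the element, and both are written 5′ to 3′ on the strand of the gene.
Dnajb4: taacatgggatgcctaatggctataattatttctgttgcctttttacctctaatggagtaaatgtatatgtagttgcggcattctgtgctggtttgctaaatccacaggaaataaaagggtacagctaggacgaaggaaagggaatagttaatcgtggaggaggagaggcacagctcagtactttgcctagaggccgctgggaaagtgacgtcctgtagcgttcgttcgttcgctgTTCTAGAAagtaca
Dnajb6: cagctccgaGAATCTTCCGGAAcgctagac
A match is a run of letters and not a shown binding site.

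The deposited levels are FPKM, fragments per kilobase of transcript scaled to the mapped fragments of a library. FPKM holds no depth, and the lowest values put 1 fragment on a 1 kb transcript at 1.31 FPKM in MG 3 up to 2.36 FPKM in MZ 1. Members of low FPKM can thus rest on very few fragments, and the number also depends on transcript length. Dnajb14, with a mean of 1.15 FPKM, had about 10.8, 16.2 and 21.7 fragments over the MG, MZ and WT libraries. Dnajc5b, with a mean of 2.91 FPKM, had about 1.44, 4.25 and 7.16. The FPKM of all genes summed to 498936 ± 64355 in MG, 670216 ± 10778 in MZ and 652537 ± 67110 in WT libraries (SD, n = 3 each). Mtor itself was at 5.25, 6.00 and 4.64 FPKM in MG, 6.55, 4.67 and 4.39 in MZ, and 3.25, 3.33 and 2.95 in WT libraries, a whole-gene value that does not check the deletion of single exons. All 14 oocyte markers were detected, with summed levels of 16948 to 32335 FPKM in MG, 33743 to 35006 in MZ and 28747 to 33373 in WT libraries. The 16 granulosa and cumulus markers, with Amhr2, Foxl2 and Wnt4 at 0 throughout, summed to 22 to 38.5 FPKM in MG, 24.0 to 28.9 in MZ and 20.3 to 33.6 in WT libraries. Theca and stroma markers summed to 18.5 to 37.2, 14 to 62.1 and 22.7 to 29.7 FPKM, and blood and immune markers to 24.6 to 38.8, 9.25 to 39.6 and 17.3 to 30.8 FPKM, in MG, MZ and WT libraries. Tested were 14 of 14 oocyte, 6 of 16 granulosa and cumulus, 5 of 9 theca and stroma and 4 of 8 blood and immune markers. None of these was called by limma in any comparison. Of the 6 granulosa and cumulus markers, 4 were above 0 in MG against WT, with Kitl highest at 1.67 (limma adjusted p = 0.11). Cyp19a1, the marker of highest level among the 6, was at -0.79 (limma adjusted p = 0.22), so similar sums can hide opposite changes. The part of the lower oocyte marker sum of some MG libraries in the member values was not tested. FPKM is a share of a library, so a lower level per oocyte and a larger share of other RNA cannot be told apart.

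The store of DnaJ mRNA was dominated by few genes. Of the 45 members, 6 averaged at least 100 FPKM over the 9 libraries, 17 averaged at least 10, 18 lay between 1 and 10, and 10 were under 1. Dnajb6 and Dnajb4, both class B members that keep clients from aggregating, together held 41.1% of the summed mean level, and the top 10 members held 85.4%. Dnajb13, Dnajb7, Dnajb8, Dnajc22 and Dnajc4 were listed at 0 in every library. Dnajb13 and Dnajb7 are known mainly from testis, and Dnajc22 mainly from liver and other epithelia. A further 5 members, Dnajb3, Dnajb5, Dnajc6, Dnajc12 and Dnajc27, had values above 0 in at most 5 of the 9 libraries and, like the 5 at 0, did not pass the filter of at least 1 FPKM in at least 3 libraries. Dnajc12 was read at 2.44 FPKM in MG 1 and at 1.35 FPKM in MG 3, and at 0 in MG 2 and in all MZ and WT libraries. The other 35 members were tested.

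**Figure D1:**
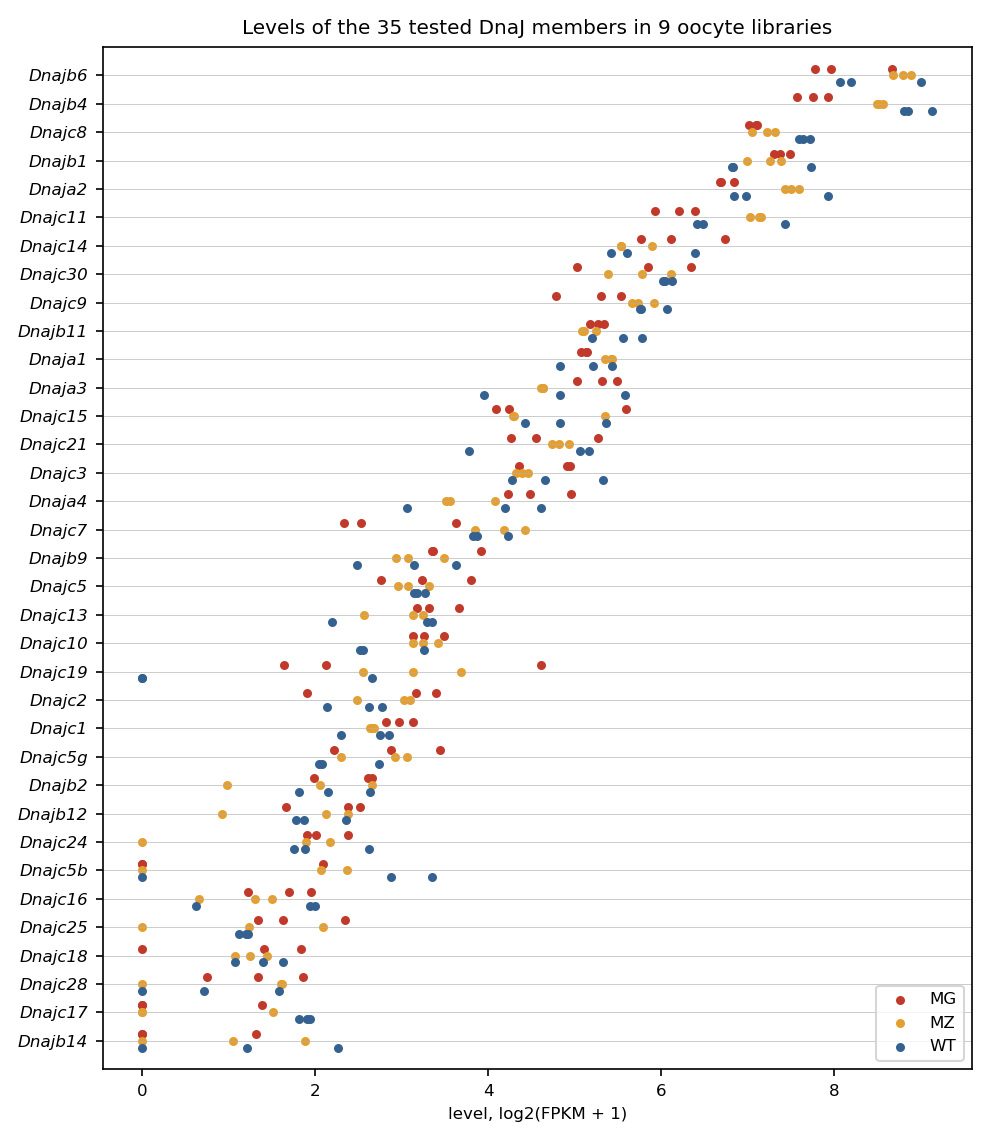
Levels of the 35 tested DnaJ members in each of the 9 libraries, on the log2(FPKM + 1) scale, ordered by mean level, with MG, MZ and WT as coloured points. Dnajb6 and Dnajb4 stand at the top, and the 3 MG points of Dnajb4 lie below its MZ points, which lie below its WT points.

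The family made up a similar small part of the library in all groups. Its members summed to 1466 ± 86.3 FPKM in MG, 1863 ± 41.4 in MZ and 1948 ± 207 in WT oocytes (SD, n = 3 each). As a percentage of each library's FPKM this came to 0.297 ± 0.040 in MG, 0.278 ± 0.002 in MZ and 0.299 ± 0.001 in WT oocytes. The lower MG sum therefore went with the lower FPKM total of the MG libraries, and as a percentage MG (0.268 to 0.343) spanned both MZ (0.276 to 0.279) and WT (0.298 to 0.300), which did not overlap. The share of Dnajb4 in the sum is a description, since the family was selected on its level. Dnajb4 was 12.2, 15.6 and 16.5% of the family level in MG oocytes, 20.03, 19.1 and 20.3% in MZ oocytes, and 21.5, 25.6 and 28.9% in WT oocytes. The 3 groups did not overlap in this share. Dnajb4 stood at 1.29 ± 0.075 times the level of Dnajb1, the stress-inducible class B member, in MG oocytes, at 2.52 ± 0.43 times in MZ and at 3.58 ± 0.80 times in WT oocytes. By library this ratio was 1.20 to 1.35 in MG, 2.15 to 2.99 in MZ and 2.66 to 4.09 in WT, so MZ and WT overlapped. It is within a library, so it does not depend on the library's FPKM total. It is a description too, since it uses the level of Dnajb4 and 1 chosen partner. Beside Dnajb6, Dnajb4 was lower in MG 1, MG 2, all MZ libraries and WT 1, and higher in MG 3, WT 2 and WT 3.

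**Figure D2:**
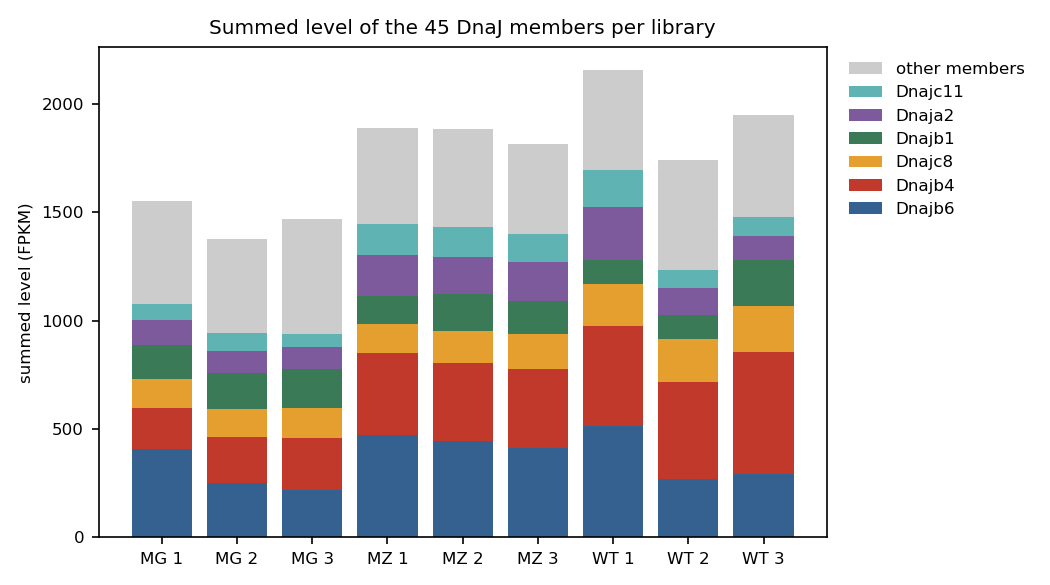
Summed FPKM of the 45 DnaJ members in each library, stacked by the 6 members that average at least 100 FPKM and the rest. The bars reach 1379 to 1552 in MG, 1815 to 1891 in MZ and 1741 to 2155 in WT libraries, and the Dnajb4 segment is shortest in MG.

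Tested gene by gene against all 10801 genes that passed the filter, 1 member was called, with limma and Benjamini-Hochberg adjustment at 0.05. In MG against WT this was Dnajb4, which was lower, beside 0.343% of all tested genes called in either direction and 0.157% called lower, with 7 members at an unadjusted limma p under 0.05 (20%, beside 17.7% of all genes). In MZ against WT no member was called, beside 0.037% of all genes, with 4 members at an unadjusted limma p under 0.05 (11.4%, beside 6.3% of all genes). In MG against MZ no member was called by limma, beside 0.13% of all genes, with 6 at an unadjusted p under 0.05 (17.1%, beside 17.6%). In the authors' deposited table, whose q-values come from Cuffdiff, 1 member was under 0.05 in MG against WT (4.13% of all genes), 0 in MZ against WT (0.787%) and 8 in MG against MZ (22.9%, beside 9.05% of all genes). Those 8 were Dnaja2, Dnajb4, Dnajb6, Dnajc7 and Dnajc11, lower in MG beside 6.21% of all genes, and Dnaja3, Dnaja4 and Dnajc14, higher in MG beside 2.83%. These shares count every gene in the limma test, many of which have a p of 1 in the authors' deposited table. Among genes with a p below 1 there, 8 of 17 members (47.1%) and 26.5% of all 3686 genes had a q under 0.05 in MG against MZ. Dnajb4 is among these 8, and its low MG level led to the choice of the family. The member shares therefore do not stand apart from that choice.

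The fold changes of the members were centred near those of all genes. The median log2 fold change over the 35 members was 0.03 in MG against WT, -0.10 in MZ against WT and 0.02 in MG against MZ, and over all tested genes it was 0.04, 0.01 and 0.04. The members split into 19 above and 16 below 0 in MG against WT, 15 and 20 in MZ against WT, and 18 and 17 in MG against MZ. Of all tested genes 47% were below 0 in MG against WT, 48.9% in MZ against WT and 46.7% in MG against MZ. In MG against WT the 3 libraries of each group did not overlap for 7 members (20%, beside 21.5% of all genes), of which 6 were lower in MG and 1 higher, beside 9.89% and 11.6% of all genes. In MZ against WT this held for 3 members (8.57%, beside 12.2%), all lower in MZ, beside 6.52% of all genes. In MG against MZ it held for 10 members (28.6%, beside 25.2%), of which 7 were lower in MG and 3 higher, beside 12.3% and 12.8% of all genes. These counts are on FPKM as deposited. FPKM sums were 428329 to 554305 in MG, 657851 to 677618 in MZ and 584503 to 718684 in WT libraries. As a share of the library's FPKM sum, Dnajb4 alone of the 6 stayed clear of WT. Of the 7 in MG against MZ, Dnaja2 and Dnajc11 alone stayed clear of MZ. The percentages of all genes, the MZ against WT counts and the members higher in MG were not recounted this way. MG against WT and MZ against WT share the WT libraries, and MG against MZ shares its libraries with both. When all libraries were scaled to the same FPKM sum, the member median was 0.39 in MG against WT and 0.41 in MG against MZ, beside 0.36 and 0.39 for all genes. Members below 0 then numbered 10 in MG against WT and 9 in MG against MZ, of 35.

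**Figure D3:**
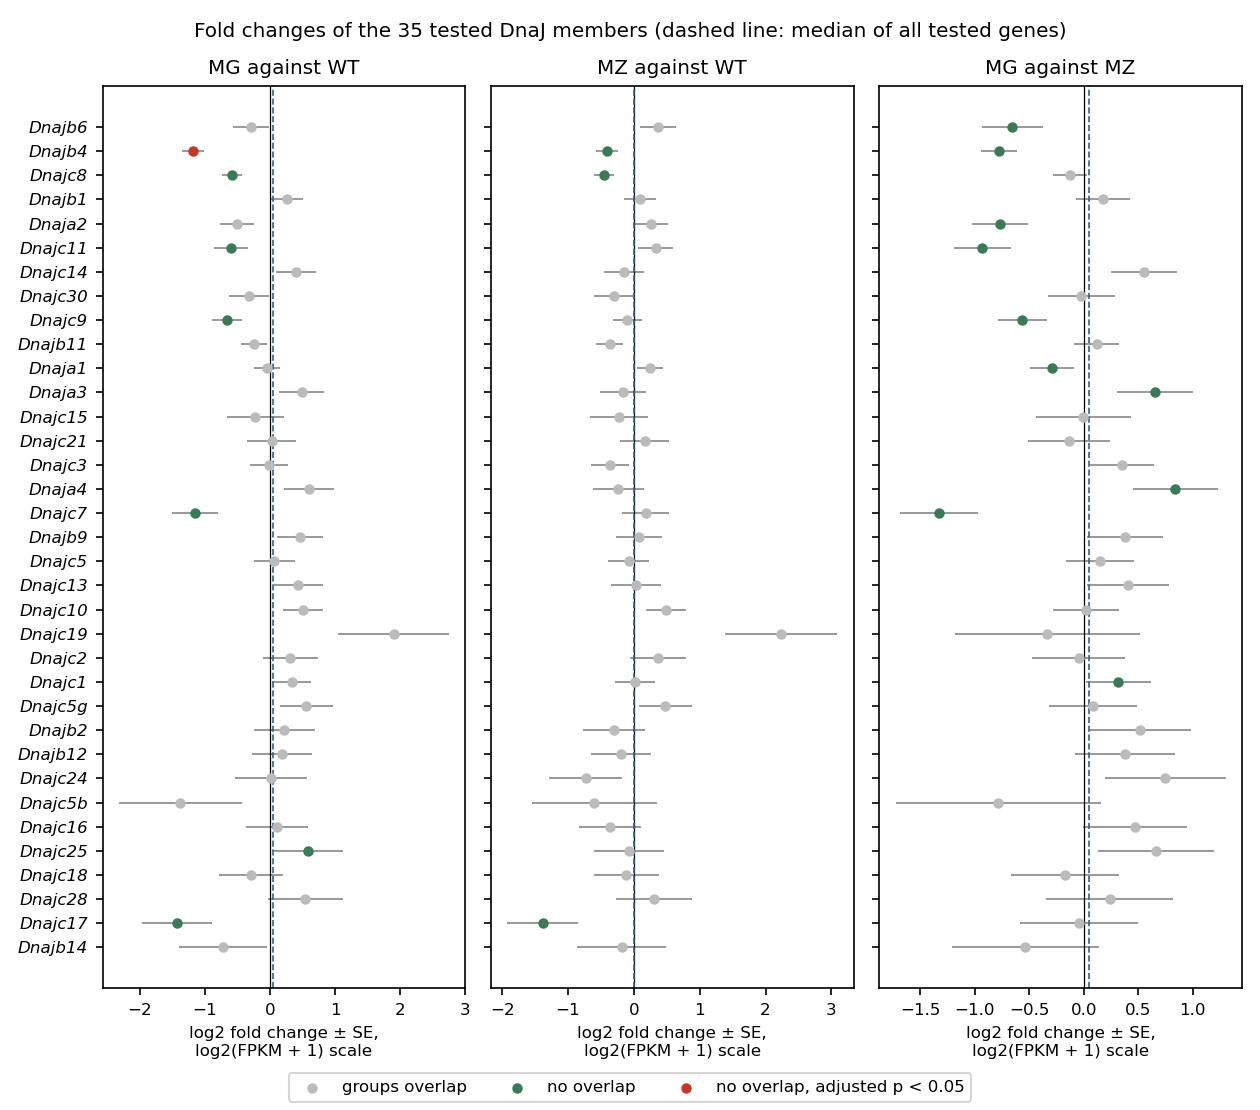
Log2 fold changes ± SE of the 35 tested members on the log2(FPKM + 1) scale in the 3 comparisons, ordered by mean level. The red point is Dnajb4 in MG against WT at -1.18, green points are members whose groups do not overlap, and the dashed line is the median of all tested genes.

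Among the cytosolic and nuclear class A and B members, 7 of 12 were tested, 1 was called in MG against WT and none in the other comparisons. Their median log2 fold change was -0.05 in MG against WT, 0.09 in MZ against WT and -0.29 in MG against MZ. Their levels summed to 842 ± 71.1 FPKM in MG, 1200.0 ± 29.1 in MZ and 1210.3 ± 186 in WT oocytes. Dnajb4, a class B co-chaperone of Hsc70, is a protein-coding gene on chr3:152178511-152210302, minus strand (GRCm38, GENCODE M21), with no exon shared with another gene.

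Dnajb4 was at 189, 216 and 243 FPKM in MG oocytes, 379, 359.5 and 368 in MZ oocytes, and 463, 446 and 563 in WT oocytes. The means were 216 ± 26.6 in MG, 369 ± 9.65 in MZ and 491 ± 63.2 in WT (SD, n = 3 each). In FPKM as deposited, no library of one group reached into another, and MZ lay between MG and WT. As a share of the library's FPKM sum, MG 3 (243 of 428329) stood above all MZ libraries, such as MZ 1 (379 of 677618). All MG libraries stayed below WT in this share. The log2 fold change was -1.18 ± 0.17 (SE) in MG against WT, with an limma adjusted p of 0.021. It was -0.78 ± 0.17 in MG against MZ (limma adjusted p = 0.078) and -0.40 ± 0.17 in MZ against WT (limma adjusted p = 0.74), and neither was called. Scaled to the same FPKM sum, the MG against MZ value was -0.34. The MG against WT call was lost when all libraries were scaled to the same FPKM sum, with a log2 fold change of -0.79 and an limma adjusted p of 0.079. It was also lost without MG 2, without any 1 of the MZ libraries and without any 1 of the WT libraries.

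Dnajb6, which suppresses aggregation of polyglutamine and amyloid proteins and had the highest mean level, was at 406, 249 and 218 FPKM in MG, 474, 446 and 411 in MZ, and 513, 269 and 293 in WT oocytes. MG lay below MZ in all libraries, while WT overlapped both. Its log2 fold change in MG against MZ was -0.66 ± 0.28 (limma adjusted p = 0.25, authors' deposited q = 0.014), and -0.22 with all libraries scaled to the same FPKM sum. Annotated transcripts of 5 predicted genes (Gm13414, Gm2541, Gm4852, Gm5917 and Gm6395) match Dnajb6 at 95% identity or more, so reads could have been split among them. Dnaja2, a class A member that refolds clients with Hsc70, was at 114, 102 and 102 FPKM in MG, 193, 172 and 180.5 in MZ, and 243, 125 and 114 in WT oocytes. MG lay clear of MZ and met WT at its lowest library, while WT 1 stood far above the other WT libraries. Its log2 fold change in MG against MZ was -0.77 ± 0.26 (limma adjusted p = 0.15, authors' deposited q = 0.00064), and -0.34 with the same FPKM sum.

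Dnajb1 was at 157, 166 and 179 FPKM in MG, 127, 167 and 152 in MZ, and 113, 112 and 212 in WT oocytes, with overlap in every comparison and a log2 fold change of 0.27 ± 0.25 in MG against WT (limma adjusted p = 0.61). With the same FPKM sum this value was 0.65. Dnaja1, a class A member whose loss in mice impairs sperm production, was at 34.3, 32.7 and 34.0 FPKM in MG, 42.3, 40.0 and 41.9 in MZ, and 42.3, 36.1 and 27.5 in WT oocytes. MG lay below MZ in all libraries for Dnaja1, by a log2 fold change of -0.29 ± 0.20 (limma adjusted p = 0.50), and WT spanned both. With all libraries scaled to the same FPKM sum this turned to 0.13. Dnaja4, a class A member, was at 17.7, 21.4 and 30.2 FPKM in MG, 10.8, 10.4 and 16 in MZ, and 7.33, 23.4 and 17.4 in WT oocytes. MG was above MZ in all libraries for Dnaja4, with a log2 fold change of 0.84 ± 0.39 (limma adjusted p = 0.29, authors' deposited q = 0.0094), and 1.25 with the same FPKM sum. Dnaja1 shares exon sequence with Smu1 and Dnaja4 with Wdr61, so the reads of these genes may be mixed.

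**Figure D4:**
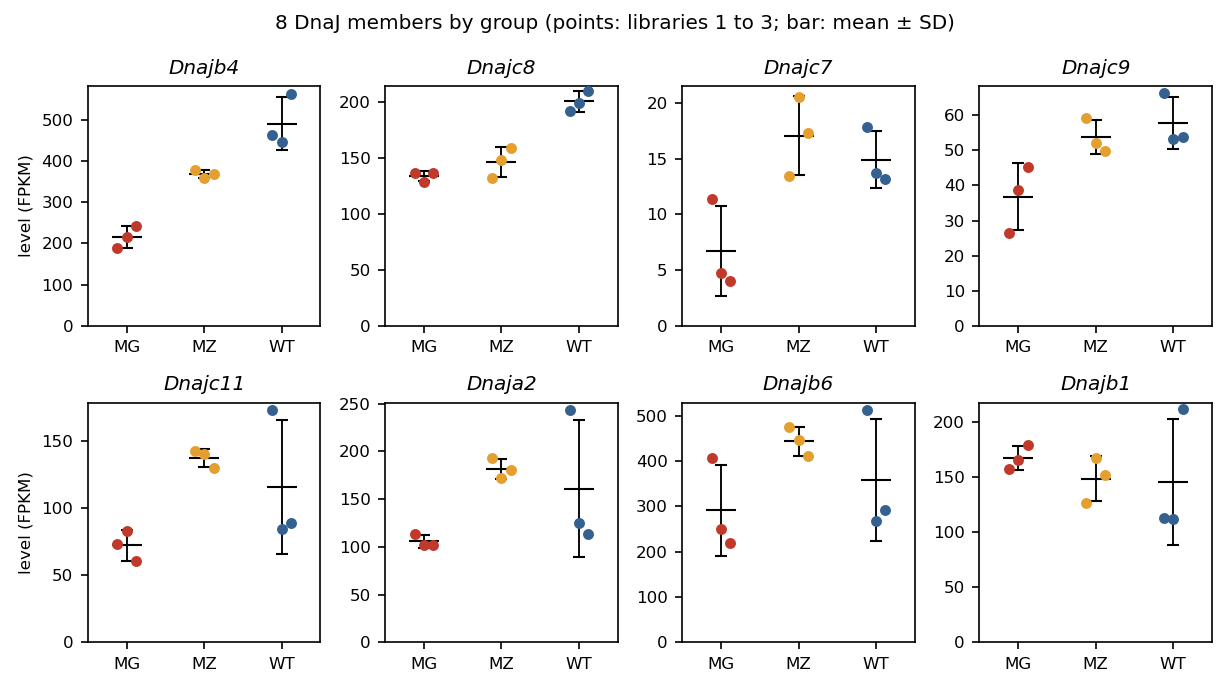
FPKM of 8 members in each library, with points for libraries 1 to 3 and bars for mean ± SD, in the order MG, MZ, WT. Dnajb4 steps up across 216 in MG, 369 in MZ and 491 in WT, Dnajc8 is highest in WT, Dnajc7 and Dnajc11 are lowest in MG, and WT replicate 1 stands apart for Dnajc11 and Dnaja2.

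Of the members grouped under ribosome, RNA and chromatin, all 6 were tested and none was called. Their levels summed to 208 ± 21.4 FPKM in MG, 237 ± 6.25 in MZ and 296 ± 7.68 in WT oocytes, and the highest member of this group, Dnajc8, held most of that sum. Dnajc8 (chr4:132535550-132553742, plus strand), a nuclear protein found with splicing factors, was at 137, 129 and 136 FPKM in MG, 132, 148 and 159 in MZ, and 192, 199 and 210.2 in WT oocytes. All MG and all MZ libraries lay below every WT library, and MG and MZ overlapped each other. The log2 fold change was -0.58 ± 0.15 in MG against WT (limma adjusted p = 0.12) and -0.45 ± 0.15 in MZ against WT (limma adjusted p = 0.70). With all libraries scaled to the same FPKM sum the MG against WT value was -0.19. Dnajc9, a histone H3 and H4 co-chaperone, was at 26.6, 38.6 and 45.4 FPKM in MG, 59.3, 52.1 and 49.8 in MZ, and 66.3, 53.3 and 53.7 in WT oocytes. In FPKM as deposited, MG lay below both other groups for Dnajc9, with log2 fold changes of -0.66 ± 0.23 against WT (limma adjusted p = 0.17) and -0.56 ± 0.23 against MZ (limma adjusted p = 0.22), which were -0.28 and -0.14 with the same FPKM sum. As a share of the library's FPKM sum, Dnajc9 in MG 3 stood above every MZ and WT library. Dnajc17, which is linked to splicing, was at 0, 0 and 1.61 FPKM in MG, 0, 1.85 and 0 in MZ, and 2.52, 2.74 and 2.85 in WT oocytes. These levels amount to about 1.24, 1.24 and 3.73 fragments over the 3 libraries of MG, MZ and WT, which is too few to show a difference. Dnajc21, a ribosome biogenesis factor, spanned 18.3 to 37.7 FPKM in MG, 25.8 to 29.6 in MZ and 12.8 to 34.8 in WT oocytes.

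In mitochondria, 6 of 7 members were tested and none was called. Dnajc11 (chr4:151933691-151982137, plus strand), a partner of the cristae-organising MICOS complex, was at 73.0, 83.1 and 60.3 FPKM in MG, 142, 139.8 and 129.7 in MZ, and 173, 84.2 and 88.7 in WT oocytes. MG lay below all MZ and all WT libraries, although MG 2 at 83.1 stood close to WT 2 at 84.2. The log2 fold change was -0.93 ± 0.26 in MG against MZ (limma adjusted p = 0.11, authors' deposited q = 0.00064) and -0.60 ± 0.26 in MG against WT (limma adjusted p = 0.27). Scaled to the same FPKM sum, these were -0.50 and -0.21. Dnaja3, the mitochondrial class A member, was at 31.7, 38.9 and 43.8 FPKM in MG, 23.4, 24.0 and 23.8 in MZ, and 14.5, 46.9 and 27.5 in WT oocytes. Here MG was above MZ in all libraries, with a log2 fold change of 0.65 ± 0.35 (limma adjusted p = 0.35, authors' deposited q = 0.025), and 1.07 with the same FPKM sum. Dnajc30, linked to respiratory complex I, was at 80.2, 31.7 and 56.6 FPKM in MG, 40.9, 68.2 and 54.1 in MZ, and 65, 64.1 and 68.9 in WT oocytes, with overlap in every comparison. Dnajc19, a protein of the import motor, was at 2.12, 23.5 and 3.36 FPKM in MG, 11.9, 7.77 and 4.88 in MZ, and 5.34, 0 and 0 in WT oocytes. Its log2 fold changes of 1.90 ± 0.85 in MG against WT (limma adjusted p = 0.28) and 2.24 ± 0.85 in MZ against WT (limma adjusted p = 0.74) were the largest positive ones among the members, and its groups overlapped. Exons of Dnaja3 overlap Vasn and Coro7, those of Dnajc19 overlap Fxr1, and those of Dnajc1 and Dnajc17 overlap Mllt10 and Zfyve19, so their reads may be mixed too.

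Of the members grouped under the endoplasmic reticulum, all 9 were tested and none was called in any comparison. A group need not hold every gene that acts at its site, and Dnajc14 was placed with the remaining class C members. In MG against MZ 8 of the 9 had a log2 fold change above 0, with a median of 0.35, beside 6 of 9 and 0.18 in MG against WT and 3 of 9 and -0.18 in MZ against WT. Over all tested genes 46.7% were below 0 in MG against MZ, with a median of 0.04. The smallest limma adjusted p among the 9 in MG against MZ was 0.57 (Dnajc25), so no shift of this group was shown. Their levels summed to 99.3 ± 9.57 FPKM in MG, 83.5 ± 3.91 in MZ and 100.2 ± 17.8 in WT oocytes. Dnajb11, a luminal co-chaperone of Hspa5 and the highest of the 9, was at 35.4, 37.6 and 39.5 FPKM in MG, 32.9, 33.6 and 36.9 in MZ, and 53.8, 46.2 and 35.9 in WT oocytes, with overlap in every comparison. Dnajc3, which also inhibits the kinase PERK, was at 19.6, 29.995 and 29.2 FPKM in MG, 21, 20.02 and 19 in MZ, and 24.3, 39.3 and 18.4 in WT oocytes. Dnajb9, which restrains the stress sensor IRE1, was at 9.33, 9.25 and 14.1 FPKM in MG, 6.66, 10.3 and 7.43 in MZ, and 4.61, 11.4 and 7.84 in WT oocytes. Both genes are known targets of the unfolded protein response, and their groups overlapped. Dnajc1, a membrane protein at ribosomes of the endoplasmic reticulum, was at 6.82, 7.76 and 6.08 FPKM in MG, 5.25, 5.42 and 5.23 in MZ, and 6.25, 5.72 and 3.95 in WT oocytes. MG was above MZ for Dnajc1 by a log2 fold change of 0.32 ± 0.30 (limma adjusted p = 0.64). Dnajc25 was at 4.10, 2.11 and 1.52 FPKM in MG, 1.36, 0 and 3.26 in MZ, and 1.18, 1.29 and 1.34 in WT oocytes, levels of a few fragments, with a log2 fold change of 0.59 ± 0.53 in MG against WT (limma adjusted p = 0.60).

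Vesicle and endosome members were low throughout. Of 6 members 4 were tested, none was called, and their levels summed to 26.9 ± 7.09 FPKM in MG, 23.5 ± 6.37 in MZ and 25.1 ± 3.42 in WT oocytes. Dnajc6, the neuronal auxilin that uncoats clathrin vesicles, was read in MG 3 only, at 0.241 FPKM. Among the remaining class C members Dnajc7, which binds both Hsp70 and Hsp90 through TPR repeats, was at 11.3, 4.78 and 4.04 FPKM in MG, 13.4, 20.5 and 17.3 in MZ, and 17.9, 13.7 and 13.2 in WT oocytes. In FPKM as deposited, MG lay below MZ and WT in all libraries. As a share of the library's FPKM sum, Dnajc7 in MG 1 stood above MZ 1 and WT 3. The log2 fold change of Dnajc7 was -1.33 ± 0.36 in MG against MZ (limma adjusted p = 0.095, authors' deposited q = 0.010) and -1.15 ± 0.36 in MG against WT (limma adjusted p = 0.15). Scaled to the same FPKM sum, these were -0.95 and -0.81. Dnajc7 overlaps exons of Cnp and Nkiras2, and its levels correspond to about 24.5, 66.5 and 48.0 fragments over the 3 libraries of MG, MZ and WT. Dnajc14, a membrane protein known to affect the transport of dopamine receptors, was at 53.4, 68.5 and 106 FPKM in MG, 45.6, 58.4 and 45.5 in MZ, and 41.7, 47.6 and 83.4 in WT oocytes, with overlap in every comparison. Its log2 fold change in MG against MZ was 0.55, and 0.98 with the same FPKM sum. Its exons overlap those of Ormdl2, Sarnp and Tmem198b.

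The partners of the DnaJ proteins were read from lists of Hsp70 proteins, nucleotide exchange factors and other co-chaperones. Of the 9 Hsp70 genes 8 were tested and none was called, with median log2 fold changes of 0.25 in MG against WT, 0.29 in MZ against WT and 0.20 in MG against MZ. Hspa8, the constitutive cytosolic Hsp70, was at 228, 211 and 131 FPKM in MG, 235, 259.6 and 290.3 in MZ, and 227, 191 and 192 in WT oocytes. Hspa5, the Hsp70 of the endoplasmic reticulum, was at 234, 229 and 169 FPKM in MG, 196, 164 and 195 in MZ, and 156, 222 and 200.3 in WT oocytes. Of the nucleotide exchange factors, 11 of 13 were tested. Of these, 10 had a log2 fold change above 0 in MG against WT, with a median of 0.99, and 10 of 11 in MG against MZ, with a median of 0.90, beside 4 of 11 and -0.06 in MZ against WT. Without Hsph1, whose level was known when the list was made, 9 of 10 were above 0 with a median of 0.85 in MG against WT, and 9 of 10 with 0.83 in MG against MZ. The whole list was made with earlier results of these data known, so leaving out Hsph1 does not make it independent of them. The genes share their libraries, so they are not replicates. Beside them, 47% of all tested genes were below 0 in MG against WT and 46.7% in MG against MZ, with a median of 0.04 in each. In the same comparisons 12 of 14 oocyte markers were below 0 in MG against WT (median -0.34) and 11 of 14 in MG against MZ (median -0.56). The 6 tested granulosa and cumulus markers had medians of 0.73 in MG against WT and 0.46 in MG against MZ, with 4 of 6 above 0 in each. The part of these shifts in the values of the exchange factors was not tested. Of the 11, Hsph1 alone was called, in MG against WT. Hsph1, the cytosolic Hsp110, was at 79.1, 93.0 and 91.6 FPKM in MG, 38.7, 34.5 and 48.0 in MZ, and 19.8, 24.8 and 13.5 in WT oocytes. It was higher in MG against WT by a log2 fold change of 2.16 ± 0.24 (limma adjusted p = 0.013). Sil1, the exchange factor of Hspa5, was at 46, 57.2 and 103 FPKM in MG, 35.5, 36.1 and 22.4 in MZ, and 16.7, 33.7 and 58.2 in WT oocytes, and its MG against WT value of 0.99 did not pass (limma adjusted p = 0.26). Bag4, named after its values were seen, was the 1 below 0, at 41.3, 35.2 and 24.0 FPKM in MG, 37.8, 38.8 and 40.4 in MZ, and 56.2, 44.5 and 48.3 in WT oocytes. The exchange factors' levels summed to 275 to 339 FPKM in MG, 172 to 191 in MZ and 167 to 199 in WT libraries. Of the 3 TPR co-chaperones (Stub1, Stip1 and St13) and of the 3 tested J-domain genes with another symbol (Sec63, Hscb and Gak), none was called in any comparison.

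**Figure D5:**
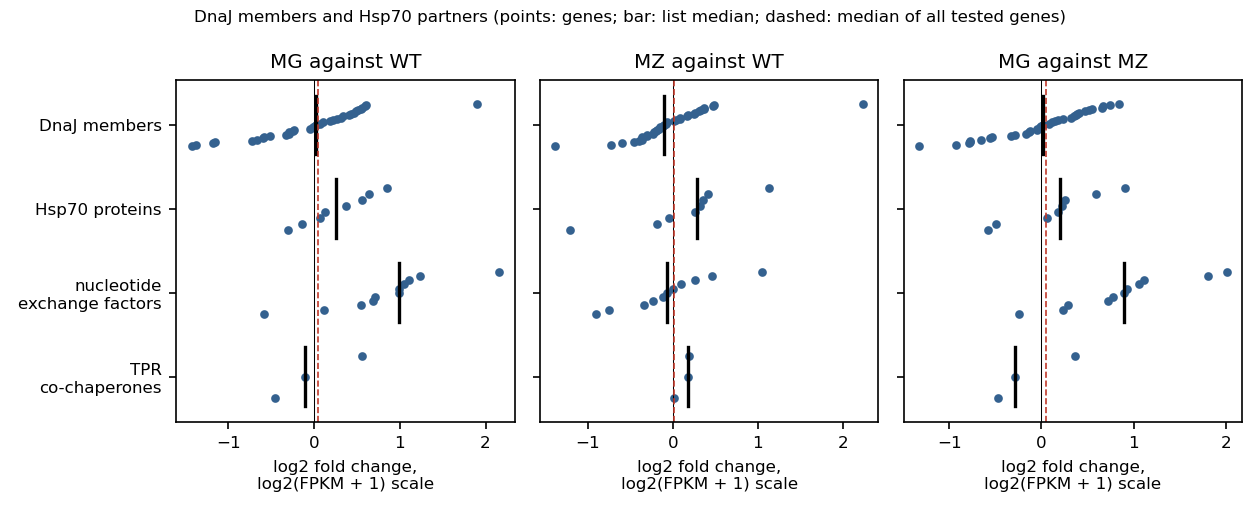
Log2 fold changes on the log2(FPKM + 1) scale of the tested DnaJ members and of their Hsp70 partner lists in the 3 comparisons, with 1 point a gene, a bar for the list median and a dashed line for all tested genes. The exchange factor medians stand at 0.99 in MG against WT and 0.90 in MG against MZ, while the DnaJ medians stand near 0.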

How the data were processed

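Libraries were made by Smart-seq2 amplification with a NEBNext Ultra kit and read as 150 bp pairs. Per the labels' protocols and the submitters' processing notes, the authors aligned reads to mm10 with TopHat2 2.0.13 and computed the deposited FPKM with Cufflinks 2.2.1, and no source used here gives the strand setting. The q-values (adjusted p-values) quoted come from the authors' deposited Cuffdiff table.

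Of 24255 rows, 27 had symbols turned into dates and were left out; 95.2% of the rest matched GENCODE M21. FPKM values were tested as log2(FPKM + 1), a scale that understates changes of low genes, with limma 3.58.1 (R 4.3.3, variance trend, 9 libraries in one fit, 6 residual degrees of freedom, two-sided, Benjamini-Hochberg over all 10801 genes with at least 1 FPKM in at least 3 libraries). The fit was also run on simulated data, drawn from the same mean levels in all groups except for genes changed in MG. That run does not cover the differences in FPKM sums seen here. No other series-wide scaling was applied. Near-identical transcripts were found with BLAST 2.17.0 (95% identity over at least 300 bp).

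Members and lists were chosen with earlier results of these data known. Described one by one were the 10 members of highest mean level, called members, and per comparison and direction up to 3 non-overlapping members of smallest p; others serve as examples of their role group. Alternatives changed the pseudocount, filter, scaling, variance model, samples and replicate block. Deviations of same-numbered libraries of different groups correlated at -0.070 to 0.073, beside -0.114 to 0.082 for other pairs of libraries. Pairing was therefore not shown, but such a correlation cannot exclude an effect shared by some genes or by library totals. Library 1 had the highest FPKM sum of its group in MG (554305), MZ (677618) and WT (718684).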

Additional observations from a re-analysis of the deposited data

How the results depend on the processing

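Each result was recomputed under 19 alternatives, 9 of which left out 1 library each. Dnajb4 in MG against WT kept its direction in all 19, with log2 fold changes of -1.27 to -0.74 and limma adjusted p of 0.019 to 0.17, and lost its call in 11. Members called there numbered 0 with no variance trend, with only the 2 groups compared, with quantile normalization and with all libraries scaled to the same FPKM sum, and 0 to 1 with a library left out. In MG against MZ, 0 to 3 members were called with a library left out: Dnajc7 without MG 1, and Dnaja2, Dnajb4 and Dnajc11 without WT 1. In MZ against WT none was called under any alternative run. The member median was 0.39 (MG against WT) and 0.41 (MG against MZ) with the same FPKM sum, and 0.026 in MZ against WT with a filter of 5 FPKM. With a library left out it spanned -0.010 to 0.17 in MG against MZ and -0.12 to 0.038 in MZ against WT. The exchange factor median, an alternative added after seeing the data, spanned 0.50 to 1.35 in MG against WT and 0.48 to 1.26 in MG against MZ. Of 245 recomputed fold changes over 13 results of named members, 102 were equal to the reported value by construction and none of the other 143 reversed. These 13 results, Dnajb4 in MG against WT among them, were named because their groups do not overlap. Leaving out a library or changing the pseudocount therefore cannot reverse them, and only the values of the 3 scalings could have reversed. Among all 35 members, 10 in MG against WT, 2 in MZ against WT and 11 in MG against MZ changed direction under at least 1 of the 3 scalings, another check added after seeing the data.

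Calls over all genes moved more. From 37 in MG against WT they came to 17 with no filter, 5 with only the 2 groups, 21 with quantile normalization, 66 with the same FPKM sum and 3 to 32 with a library left out. From 4 in MZ against WT they came to 0 with a filter of 5 FPKM, 2 with no filter, 7 with no trend, 2 with a pseudocount of 0.1, 1 with quantile normalization, 1 with the same FPKM sum and 0 to 6 with a library left out. From 14 in MG against MZ they came to 9 with no filter, 9 with no trend, 73 with only the 2 groups, 6 and 30 with pseudocounts of 0.1 and 5, 31 with the same FPKM sum and 0 to 213 with a library left out (213 without WT 1). With the replicate block they were 13 in MG against WT, 0 in MZ against WT and 159 in MG against MZ, with 1, 0 and 0 members called, although the numbers were not shown to pair libraries. The cause of these moves was not tested. Members of low FPKM can rest on very few fragments.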
